A study of Mus musculus with 2 samples.

Results

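The 47 genes described here encode the machinery of mitosis and cytokinesis, from the kinases that start mitosis to the proteins that cut 1 cell into a pair. They were chosen by symbol for their function, though with earlier results of these data known. All 47 were matched among the 43346 Ensembl genes of the tables. Their RNA was measured by total RNA sequencing in the spleens of 2 newborn B6NCrl mice (postnatal, age 0 days), littermates from 1 pregnancy for which the labels name no treatment and no sex. Each spleen gave 1 library from 10 ng of RNA longer than 200 nt, so there is 1 group of n = 2 and no contrast between conditions. Pup 2 gave replicate 1 and pup 1 gave replicate 2, per the labels. The donor identifier in the labels is shared by the 2 samples, and the descriptions tell the pups apart. The libraries held 33122187 and 32162543 estimated counts and differed far beyond sampling noise (chi-square per degree of freedom 23.6 over the genes), so they are not 1 library deposited under 2 names. All 5 regulators of spleen development that were checked were above 1 TPM (an abundance corrected for transcript length and sequencing depth) in both libraries. Beside them, 55.6% of protein-coding genes were at or above 1 TPM in both. Tcf21 led the 5 at 114 and 135 TPM.

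As background, a cell enters mitosis when cyclins A and B activate the kinase Cdk1, which Cdc25 phosphatases switch on and which is helped by the Polo and Aurora kinases. Condensins compact the chromosomes, kinetochores attach them to spindle microtubules, and the spindle checkpoint holds back the anaphase-promoting complex until every chromosome is attached. That complex then marks securin and cyclin B for destruction, separase cuts the cohesin rings, and the central spindle and a contractile ring divide the cell. Most of these genes are transcribed mainly in G2 and M phase. Their promoters are repressed in resting cells by the DREAM complex, which binds through the cell cycle genes homology region (CHR), and are activated with the help of NF-Y, which binds CCAAT boxes. The spleen of a newborn mouse is a site of blood formation, with many dividing erythroid and myeloid precursors.

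Because these genes are known for shared promoter elements, the promoter letters are shown before the levels. RefSeq promoter entries on GRCm38.p6 (the mm10 build) were found for 38 of the 47 genes, Aurkb, Incenp, Tpx2, Spc24, Kif20a, Ccna2, Cdc25c, Smc4 and Foxm1 being the others, and the first entry of a gene was used. The 6 promoters below belong to the 6 highest genes by TPM that held both kinds of match in the 250 bases before the annotated start. Each line runs 5′ to 3′ on the strand of the gene up to the base before the start, over 200 bases, or 199 for Ube2c, whose stretch ends 1 base earlier. Capitals mark matches to the CHR letters TTTGAA or TTCGAA and to the CCAAT box, each on either strand, so that TTCAAA and ATTGG are matches on the other strand. Overlapping matches were each counted, which matters for Ube2c, where one CCAAT overlaps one ATTGG.
Ube2c, chr2:164769729-164769927, plus strand: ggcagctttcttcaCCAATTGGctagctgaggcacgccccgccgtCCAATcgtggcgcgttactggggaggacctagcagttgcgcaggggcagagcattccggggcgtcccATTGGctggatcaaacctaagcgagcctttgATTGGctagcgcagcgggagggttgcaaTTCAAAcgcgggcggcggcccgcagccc
Cdk1, chr10:69352913-69353112, minus strand: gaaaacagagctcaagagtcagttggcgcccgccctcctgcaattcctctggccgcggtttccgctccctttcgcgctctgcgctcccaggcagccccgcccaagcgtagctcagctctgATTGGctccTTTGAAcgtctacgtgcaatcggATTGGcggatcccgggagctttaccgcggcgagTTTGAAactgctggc
Ccnb2, chr9:70421555-70421754, minus strand: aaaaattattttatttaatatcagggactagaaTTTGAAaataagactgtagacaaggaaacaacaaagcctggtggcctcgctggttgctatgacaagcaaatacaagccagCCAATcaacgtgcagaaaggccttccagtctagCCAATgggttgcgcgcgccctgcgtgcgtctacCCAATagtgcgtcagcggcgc
Smc2, chr4:52439021-52439220, plus strand: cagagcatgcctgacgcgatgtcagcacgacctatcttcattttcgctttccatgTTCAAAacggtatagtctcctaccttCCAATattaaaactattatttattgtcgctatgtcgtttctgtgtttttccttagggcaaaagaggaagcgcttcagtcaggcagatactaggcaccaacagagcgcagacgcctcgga
Top2a, chr11:99024190-99024389, minus strand: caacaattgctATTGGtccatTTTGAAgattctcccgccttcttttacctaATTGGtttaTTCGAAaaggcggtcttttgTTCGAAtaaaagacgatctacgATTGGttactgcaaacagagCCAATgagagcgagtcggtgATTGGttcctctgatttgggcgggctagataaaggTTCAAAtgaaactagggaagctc
Cdc20, chr4:118437344-118437543, minus strand: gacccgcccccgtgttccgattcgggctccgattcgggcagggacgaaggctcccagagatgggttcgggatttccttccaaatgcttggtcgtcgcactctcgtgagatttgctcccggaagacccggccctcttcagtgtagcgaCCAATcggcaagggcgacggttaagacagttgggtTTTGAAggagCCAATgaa

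Cdk1 carried a pair of ATTGG boxes 32 bases apart, with a CHR match between them and another CHR match 15 bases before the start. In Ccnb2, which encodes cyclin B2, 3 CCAAT boxes stood at even distances of 33 bases, the last with its first base at -21, and a further CHR match lay 4 bases after the start. Top2a, for DNA topoisomerase II alpha, had 6 CCAAT boxes and 4 CHR matches, more CHR matches than any of the other 37 promoters. The Ube2c promoter also had 6 CCAAT boxes, 1 of them upstream of the stretch shown, and 1 CHR match 29 bases before the start. The start in the RefSeq table is not everywhere that of GENCODE M21, in which the last 30 bases shown for Ube2c, 26 for Cdk1 and 9 for Cdc20 are exon of the gene itself. The CHR match of Ube2c and the one of Cdk1 nearest the start thus lie inside the annotated gene.

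Over the 250 bases before the start, the CCAAT letters were found in 29 of 38 promoters (76.3%), beside 36.8% of detected protein-coding genes and 34.5% of all 27025 genes in the table. The CHR letters were found in 15 (39.5%), beside 12.3% and 17.4%. Both kinds stood in 14 promoters (36.8%), beside 4.95% and 6.21%. At least 2 CCAAT boxes stood in 18 promoters (47.4%), beside 13.8% of detected protein-coding genes and 10.5% of all genes. Neighbouring boxes 30 to 35 bases apart were found in 7 (18.4%), beside 2.73% and 1.52%. The 7 were Cdk1, Ccnb1, Ccnb2, Ube2c, Cdca8, Aurka and Spc25.

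The CHR matches clustered at the start itself, so the count depended on where the window ended. With the window extended to 50 bases after the start, 31 of 38 promoters (81.6%) held a CHR match, beside 14.0% of detected protein-coding genes and 19.4% of all genes, and 27 (71.1%) held both kinds, beside 6.06% and 7.70%. CCAAT boxes stood in 29 there too, beside 39.1% and 37.9%. Of the 42 CHR matches in the longer window, 30 had their first base within 50 bases of the start, and 21 in 19 genes lay from the start onward. The median first base was at -1.5 for CHR matches and at -67.5 for CCAAT boxes, counting the start as 0. The 7 sites below come from among the highest genes whose first match lies past the start, chosen after their values were seen. Each is shown with 10 bases on either side, and its capitals mark the CHR match.
Cenpa, chr5:30666892-30666917, plus strand: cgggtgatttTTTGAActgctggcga
Cdc25b, chr2:131186945-131186970, plus strand: gctgttatttTTCGAAtatataagga
Spc25, chr2:69206174-69206199, minus strand: cggtggagagTTTGAAattgaaagac
Plk1, chr7:122159455-122159480, plus strand: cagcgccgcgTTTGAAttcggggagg
Aurka, chr2:172370523-172370548, minus strand: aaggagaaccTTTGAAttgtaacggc
Cenpf, chr1:189688069-189688094, minus strand: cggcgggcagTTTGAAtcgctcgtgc
Racgap1, chr15:99651636-99651661, minus strand: ggtgcgtgatTTTGAAccggatctgg

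The 7 matches shown read on the strand of the gene, 7 to 32 bases after the start, except in Cenpf and Racgap1, where the first base stood 2 and 5 bases after it. Of all 21 matches from the start onward, 17 were on the strand of the gene and 4 on the other, in Smc2, Ndc80, Ttk and Anln. TTCGAA, as in Cdc25b, reads the same on both strands and was counted once, on that of the gene. In 7 genes with an entry (Birc5, Ccnb1, Mad2l1, Pttg1, Ncaph, Nuf2 and Cenpe) these letters were not in the longer window. A match of letters is a description of the sequence and does not show that a factor binds there. Among 92 other mitosis genes with an entry, 28.3% held the CHR letters before the start and 42.4% in the longer window. A CCAAT box was held by 46.7% before the start and 54.3% in the longer window. Both kinds were held by 16.3% and 27.2%.

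**Figure D1:**
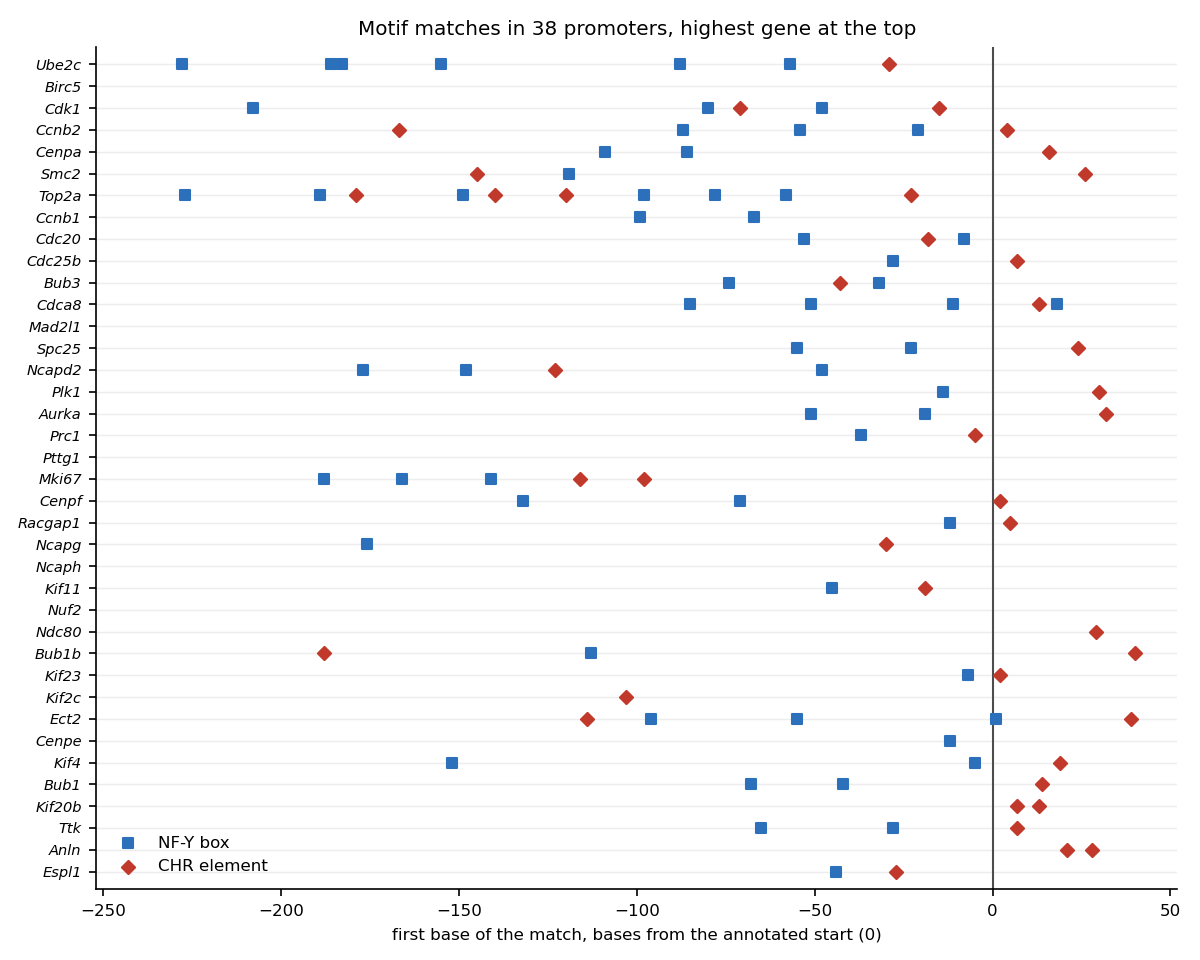
Position of each CHR element and NF-Y (CCAAT) box match in 38 promoters, plotted as the distance of its first base from the annotated start (x axis, bases, 0 is the start) with 1 gene per row from highest TPM (top) to lowest. NF-Y boxes lie mostly upstream, with a median at -67.5, and CHR matches lie around the start, with a median at -1.5.

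All 47 genes were expressed in both newborn spleens. Each was above 1 TPM in both libraries, and each was above 10 TPM as well, where 55.6% of protein-coding genes and 31.0% of all genes were at or above 1 TPM in both. Together they held 5437 TPM in replicate 1 and 4809 TPM in replicate 2, a share of 0.512% ± 0.0444 (SD, n = 2) of all TPM. The median gene of the set stood at 69.3 TPM, beside 13.08 TPM for the 11932 protein-coding genes detected. By mean TPM, 35 of the 47 were above the 75th percentile of those genes and 19 were in the highest 10.0% of them. The lowest, Espl1, was at percentile 44.5. In a whole organ, more dividing cells and more of these transcripts per dividing cell cannot be told apart.

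On the deposited TPM, the levels spanned 53.9-fold from Ube2c to Espl1, and 26 genes were above 50 TPM, 18 above 100 and 6 above 200 in both libraries. Ube2c, Birc5 and Cdk1 made up 27.2% of the summed TPM. Between neighbours in the order of mean TPM, the values of the libraries overlapped in 30 of 46 pairs. Overlap here and below compares the values of both libraries together, and in 45 of the 47 genes replicate 1 had the higher TPM. It does not mean that the order changed within a library. The rank correlation of the 47 genes between the libraries was 0.996. At the top, the lower Ube2c value (524 TPM) was just above the higher Birc5 value (521 TPM), and both Birc5 values were above those of Cdk1.

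**Figure D2:**
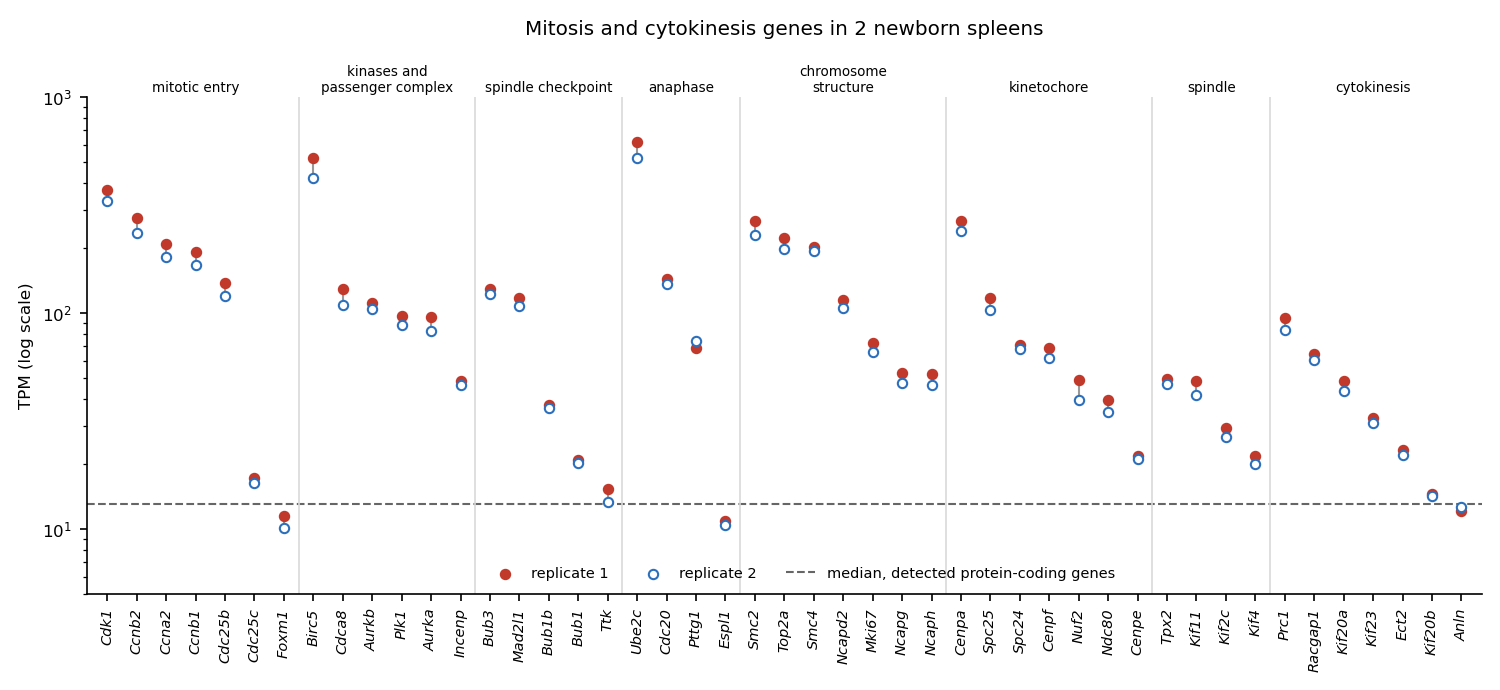
TPM (log scale) of the 47 genes in replicate 1 (filled) and replicate 2 (open), grouped by role and ordered by mean TPM, with the median of detected protein-coding genes (13.08 TPM) as a dashed line. The genes run from Ube2c at 619.8 and 524 TPM to Espl1 at 10.8 and 10.4 TPM, and only Pttg1 and Anln have the higher value in replicate 2.

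Genes of mitotic entry were among the highest. Cdk1, the kinase that drives entry (chr10:69335146-69352938, minus strand), was measured at 371 TPM (replicate 1) and 331 TPM (replicate 2). Its partners Ccnb2 (cyclin B2, chr9:70407692-70421547), Ccna2 (cyclin A2, chr3:36564865-36572150) and Ccnb1 (cyclin B1, chr13:100778650-100786570) followed at 276 and 235, at 209 and 182, and at 191 and 166 TPM. On the deposited TPM the Cdk1 values lay above those of Ccnb2 and the Ccnb2 values above those of Ccna2 in both libraries, while Ccna2 and Ccnb1 overlapped. With its counts placed on its longest coding transcript, Cdk1 was instead at 121 and 102 TPM, below Ccnb2 (276 and 235) and Ccna2 (206 and 180.3) on the same scale. That transcript, of 2886 nt, held 2.56% of the Cdk1 TPM and 8.06% of its counts by the mean of the libraries. Of the phosphatases that activate Cdk1, Cdc25b stood at 137 and 119.9 TPM and Cdc25c at 17.2 and 16.3. Cdc25b was thus 7.67 ± 0.431 times Cdc25c (SD, n = 2). Foxm1, a transcription factor that activates many G2 and M genes, was at 11.5 and 10.1 TPM, the second lowest of all 47 by mean.

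Among mitotic kinases and the chromosomal passenger complex, which corrects faulty attachments and later guides cytokinesis, Birc5 stood apart. Birc5 encodes survivin (chr11:117849251-117855743, plus strand) and was at 521 and 422 TPM. Its partners were Cdca8 (borealin) at 129.6 and 109 TPM, the kinase Aurkb at 111 and 104, and the scaffold Incenp at 48.4 and 46.4. On the deposited TPM no partner overlapped Birc5 in either library. On the longest coding transcript Birc5 (143 and 117) overlapped Cdca8 (126 and 108) between the libraries, though Birc5 was the higher within each. That Birc5 transcript held 6.69% of the counts of the gene by the mean of the libraries. The centrosomal Aurora kinase Aurka was at 96.1 and 82.5 TPM and the Polo kinase Plk1 at 96.9 and 87.8, and their values overlapped.

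Spindle checkpoint genes fell into a high and a low pair around Bub1b. Bub3, an adaptor of the checkpoint at kinetochores, stood at 129 and 122 TPM, and Mad2l1, which encodes the Mad2 inhibitor of Cdc20, at 117 and 107. Bub1b, for BubR1, was at 37.4 and 36.3 TPM. The kinases Bub1 and Ttk (Mps1) were lower, at 20.7 and 20.2 and at 15.3 and 13.3 TPM. Bub3 was 6.14 ± 0.0952 times Bub1, the kinase it recruits.

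At the metaphase to anaphase step, Ube2c (chr2:164769898-164778822, plus strand), the ubiquitin-conjugating enzyme that works with the anaphase-promoting complex, was the highest of the 47 on the deposited TPM, at 619.8 and 524. On its longest coding transcript, of 2191 nt, it was at a mean of 238 TPM, below the 255 of Ccnb2. On its coding transcript with the most counts, of 967 nt, it was at 573 TPM. Cdc20, the activator of that complex, stood at 144 and 136 TPM. Pttg1, which encodes securin, was at 68.7 and 74.0 TPM, and its partner Espl1, which encodes separase, was at 10.8 and 10.4. Pttg1 was higher in replicate 2, unlike 45 of the other genes.

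Chromosome structure genes included the core subunits of condensin. Top2a, which untangles DNA and is a common marker of cycling cells, stood at 222 and 197 TPM. The condensin ATPases Smc2 and Smc4 were listed at 267 and 229 and at 203 and 194 TPM, and the subunits of condensin I Ncapd2, Ncapg and Ncaph at 115 and 106, 52.5 and 47.3, and 52.0 and 46.3. Mki67, the gene of the Ki-67 antigen that coats mitotic chromosomes, was at 72.6 and 66.1 TPM and, with its length of 10075 nt, had more estimated counts than any other of the 47 (22838 and 19595). The values of Smc2, Smc4, Top2a and Ncapd2 rested on how counts were divided among their transcripts, as described below.

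Among kinetochore genes, Cenpa, the histone H3 variant that marks the centromere, stood at 268 and 239 TPM. The 4 subunits of the NDC80 complex, which grips microtubules, were Spc25 at 118 and 103 TPM, Spc24 at 71.1 and 68.0, Nuf2 at 48.6 and 39.4 and Ndc80 at 39.6 and 34.8. The heads of the complex, Nuf2 and Ndc80, overlapped each other and lay below the Spc24 and Spc25 pair that anchors it. Cenpf, a microtubule-binding protein of the outer kinetochore, was listed at 69.0 and 61.9 TPM and the motor Cenpe, which moves chromosomes to the spindle equator, at 21.7 and 20.9. The spindle motors and their partner were in the lower part of the range: Tpx2, an activator of Aurora A, at 49.5 and 47.03 TPM, Kif11 (Eg5), which pushes the poles apart, at 48.2 and 41.6, Kif2c, a microtubule depolymerase, at 29.4 and 26.7, and the chromokinesin Kif4 at 21.7 and 19.9.

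Cytokinesis genes had the lowest median of the 8 roles, 31.7 TPM, beside 178.5 TPM for mitotic entry. Prc1, which bundles midzone microtubules, led at 94.5 and 83.0 TPM. Racgap1 and Kif23, the subunits of centralspindlin, stood at 64.7 and 60.6 and at 32.6 and 30.7 TPM, with no overlap. Kif20a, a kinesin of the midzone, was at 48.2 and 43.3, the RhoA activator Ect2 at 23.1 and 21.9, Kif20b at 14.5 and 14.2, and Anln, the anillin of the contractile ring, at 12.0 and 12.6 TPM.

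Subunits of the same complex did not share 1 level. In 4 of 6 complexes the highest subunit was at least 2 times the lowest in both libraries on the deposited TPM. The ratio was 9.94 ± 1.19 for Birc5 over Incenp, 6.72 ± 0.522 for Pttg1 over Espl1, 5.05 ± 0.145 for Smc2 over Ncaph and 2.97 ± 0.00576 for Spc25 over Ndc80. It was 1.98 ± 0.00807 for Racgap1 over Kif23 and 1.97 ± 0.0355 for Cdk1 over Ccnb1. These are ratios of RNA and say nothing of the protein.

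A ratio of TPM depends on the transcript lengths it is divided by, so TPM was recomputed with every count of a gene placed on its coding transcript with the most counts, and again on its longest coding transcript (both chosen after seeing the data). On the first, Birc5 over Incenp was 10.5 ± 1.22 and Pttg1 over Espl1 was 6.80 ± 0.479, and on the second they were 2.74 ± 0.320 and 2.77 ± 0.195. The annotation holds a Birc5 transcript of 3334 nt beside the main one of 947 nt, and which of these lengths is used sets the value. By the mean of the libraries, the longer held 1.85% of the Birc5 TPM and 6.69% of its counts. The main one held 98.2% and 93.3%. Spc25 over Ndc80 moved little, from 3.0 ± 0.0221 to 2.63 ± 0.0194. Condensin I was reordered: its top subunit on the first scale was Smc4, at 7.23 ± 0.203 times Ncaph, and on the longest transcripts at 1.82 ± 0.0511 times. On the longest transcripts the widest ratio among Cdk1 and its cyclins was Ccnb2 over Cdk1, at 2.29 ± 0.0186, so that 4 complexes again passed 2-fold, with Cdk1 and its cyclins in place of condensin I. Ncapg and Ncaph, whose main coding transcript is also the longest, were near each other throughout, with a ratio of 1.02 ± 0.00811 on the deposited TPM and 1.04 ± 0.0032 on the coding transcripts.

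**Figure D3:**
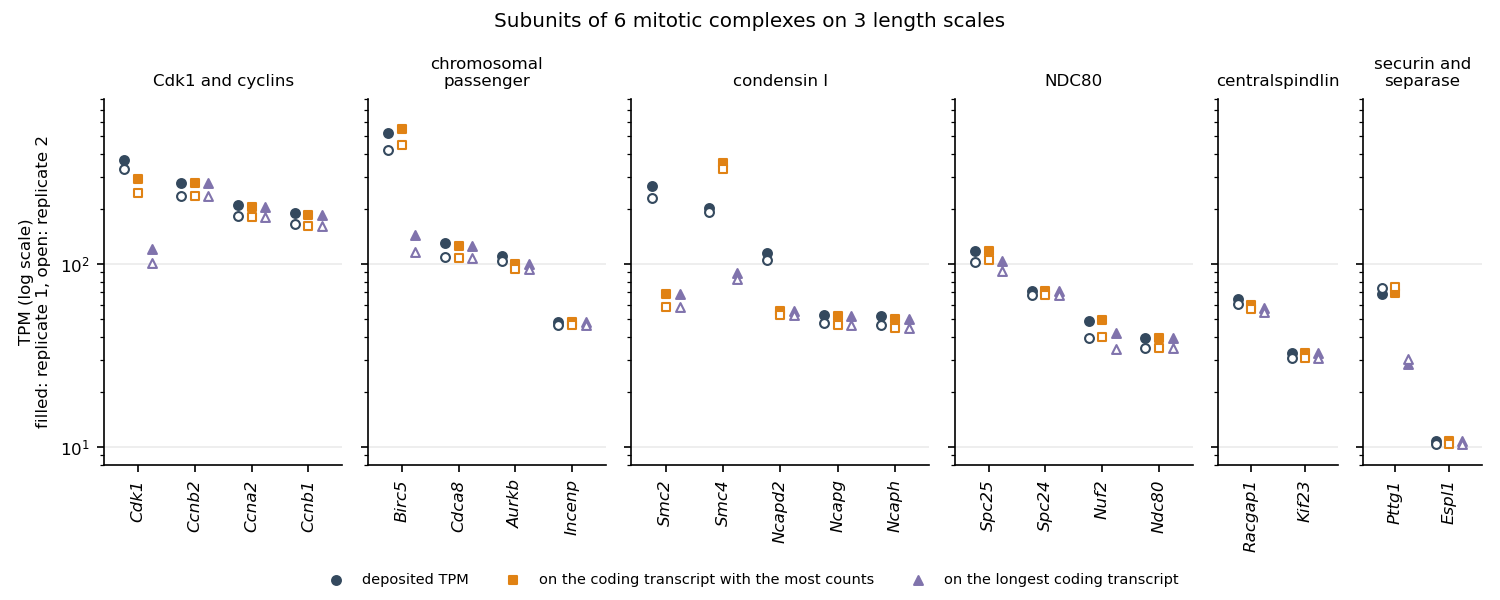
TPM (log scale) of the subunits of 6 complexes in replicate 1 (filled) and replicate 2 (open), as deposited (circles) and recomputed on the coding transcript with the most counts (squares) or on the longest coding transcript (triangles). Birc5, Cdk1, Pttg1, Smc2, Smc4 and Ncapd2 move between scales, while Ccnb1, Ccnb2, Incenp, Kif23 and Espl1 stay in place.

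On the coding transcript with the most counts, 4 genes were lower by at least 1.5 times: Smc2 went from 248 to 63.2 TPM, Cenpf from 65.5 to 17.5, Ncapd2 from 110.2 to 53.8 and Top2a from 209 to 116. Of detected protein-coding genes, 13.8% were lower by as much. Smc4 went the other way, from 198 to 343 TPM, since its coding transcript with the most counts has 1163 nt, and it stood at 86.5 TPM on the longest. Cdk1 went from 351 to 269 TPM and was at 112 on the longest. For 36 of the 47 genes the value stayed within 10%.

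The transcript tables show where these values come from. Of the 47 genes, 14 had 1 annotated transcript and 33 had several, up to 14. The transcript with the most TPM was the same in both libraries in all 47. It was annotated as protein-coding in all but Smc2, where 8.55% of detected protein-coding genes had a leading transcript of another class. It held under 60% of the TPM of the gene in 13, beside 28.8% of detected protein-coding genes.

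Smc2 was the extreme case. Its transcript Smc2-203, a processed transcript of 643 nt with no annotated protein, held 55.7% of the TPM of the gene in both libraries but 22.4% of its estimated counts in replicate 1 and 22.5% in replicate 2. The full coding transcript Smc2-201, of 5404 nt, held 14.2% of the TPM and 55.7% and 56.0% of the counts. Short transcripts thus carried most of the Smc2 TPM and a minority of its counts.

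Transcripts without a coding annotation held over 40% of the TPM in 5 of the 47 genes, beside 13.8% of detected protein-coding genes (72.8% in Smc2, 58.6% in Ncapd2, 51.7% in Top2a, 46.0% in Cenpf and 45.6% in Cenpa), and over 10% in 12, beside 35.4%. Neither share was above that background. By estimated counts the same share was 28.8% in Smc2, 16.4% in Ncapd2, 13.1% in Top2a and 9.77% in Cenpf. In Ncapd2 the non-coding part was mainly retained introns, led by Ncapd2-206 with 25.2% and 22.5% of TPM. In Top2a it was processed transcripts, led by Top2a-202 with 34.6% and 33.5%. Cenpa differed from these in that its non-coding share was also large by counts, at 40.4%. There the transcript Cenpa-202, annotated as a target of nonsense-mediated decay, the pathway that degrades messages with an early stop, held 29.5% and 28.4% of TPM and 27.3% and 26.5% of counts. Smc4 resembled it, with a decay-annotated transcript of 4057 nt, Smc4-207, at 40.4% and 37.1% of its counts.

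Some genes divided their RNA among coding transcripts. Kif20a-201 and Kif20a-202, which differ by 2 nt in length (3567 and 3565), held 56.5% and 43.5% of TPM in replicate 1 and 54.3% and 45.7% in replicate 2. Prc1 was led by Prc1-202, with 29.2% and 26.7%, followed by Prc1-206 with 26.7% and 25.9%. Cdc25b-201 and Cdc25b-202 held 46.2% and 40.4% in replicate 1 and 44.0% and 41.1% in replicate 2. The 2 libraries differed most in Ttk, where Ttk-201 held 79.8% in replicate 1 and 59.9% in replicate 2, on 1301 and 1034 estimated counts for the whole gene. Shares of near-identical transcripts depend on the few reads that tell them apart.

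**Figure D4:**
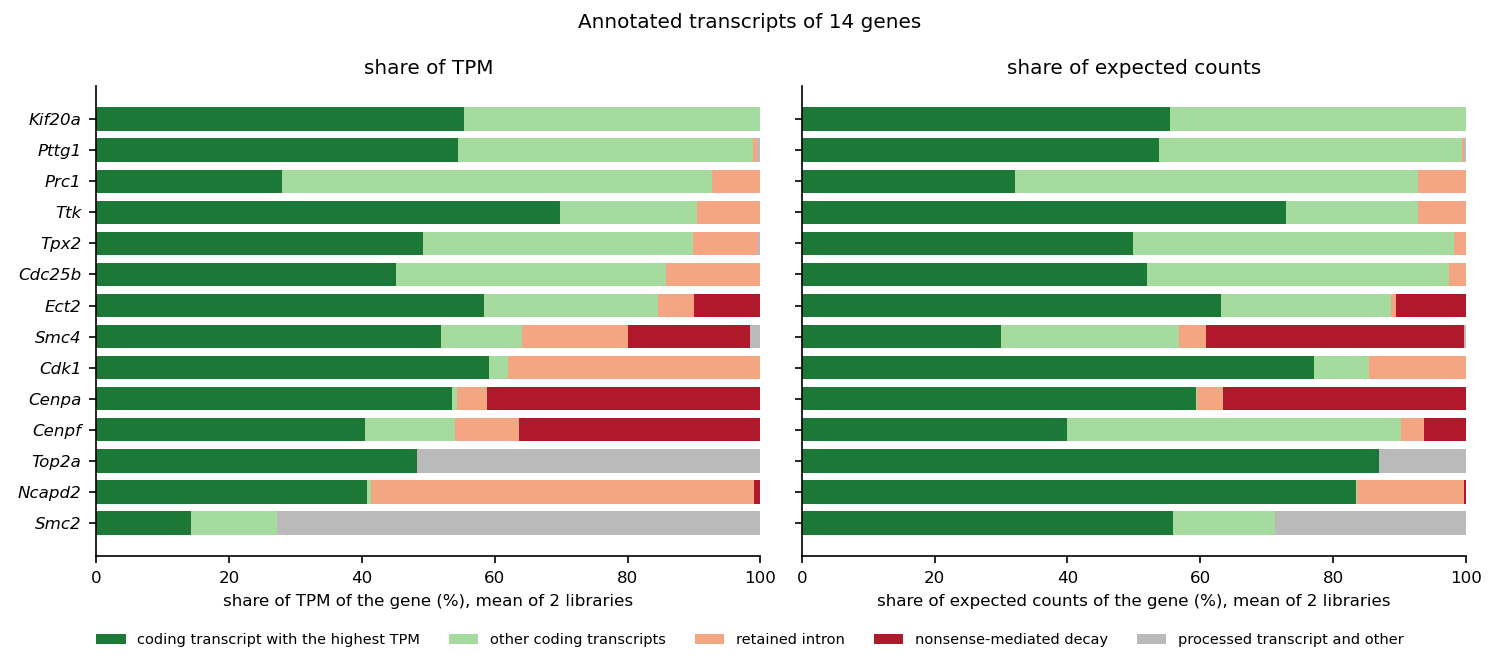
Share of each annotated transcript class in the TPM (left) and in the estimated counts (right) of 14 genes, in percent, as the mean of 2 libraries; dark green is the coding transcript with the highest TPM. In Smc2, Ncapd2, Top2a and Cenpf the non-coding classes take more of the TPM than of the counts (72.8% against 28.8% in Smc2), while in Cenpa they take over 40% of both.

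Within the quantification of the authors, the assignment of reads to genes left little uncertainty. The posterior SD of the count, which the authors deposited, was 0 in both libraries for 34 genes and at most 0.433% of the count for the rest. Exons of 13 of the 47 overlapped those of another gene, beside 31.7% of detected protein-coding genes. The partner was on the opposite strand and itself expressed for Kif20a (Cdc23 at 34.5 and 38.8 TPM), Ccna2 (Exosc9 at 45.7 and 41.1), Cdc20 (Elovl1 at 64.9 and 64.6) and Kif4 (Pdzd11 at 69.7 and 67.0). For Ncapg (Lcorl at 6.37 and 6.46), Cdca8 (9930104L06Rik at 5.47 and 6.21), Cdc25c (Gm3550 at 4.82 and 4.85), Prc1 (Rccd1 at 4.98 and 3.95) and Cdc25b (Spef1 at 1.93 and 1.72) a partner on the opposite strand was expressed at a lower level. No source used here says whether strand was used in counting. The posterior SD does not cover that choice, and the split between these partners is uncertain.

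The library of pup 2 (replicate 1) held more of this RNA, relative to its other genes, than that of pup 1. By ratios of estimated counts scaled with the trimmed mean of M values (TMM), all 47 genes were higher in replicate 1, beside 49.0% of the 15499 genes whose mean count was 20 or more, and none was higher in replicate 2, beside 51.0%. Their median log2 ratio was 0.28 (1.22-fold), and that of the 15499 genes was -0.01. At least 25% higher in replicate 1 were 16 of the 47, beside 9.14% of all genes, and 0 were at least 25% higher in replicate 2, beside 15.4%. With 1 library per pup and no second group, no p-value can be given, and the ratio describes these 2 libraries only. A difference between the spleens cannot be told apart from one of dissection or library preparation.

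How many genes pass a fixed fold depended on the scaling. Each scaling of counts shifts all genes together. Deposited TPM also divides by a length estimated in each library, for Cdk1 1009 nt in replicate 1 and 958 nt in replicate 2. The median log2 ratio of all genes was -0.11 with library sizes, -0.14 with deposited TPM and 0.04 with spike-in totals. The median of the 47 minus that of all genes was 0.29 with TMM, DESeq2 size factors, library sizes and spike-in totals, and 0.28 with deposited TPM. With library sizes 2 genes differed by 25% or more, with deposited TPM 0 and with spike-in totals 25. The spike-in totals were only 694 and 748 counts, so that scaling carries a larger counting error. With library sizes and with deposited TPM, 45 of the 47 were higher in replicate 1, beside 33.9% and 29.4% of all genes.

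The size of the ratio varied from gene to gene. It ran from 1.03-fold in Pttg1 (95% counting interval 0.96 to 1.11) to 1.36-fold in Birc5 (1.32 to 1.39), on 14623 and 11225 estimated counts. Nuf2 was also 1.36-fold higher (1.28 to 1.43). Next came Cdk1 at 1.31-fold (1.28 to 1.35), Ttk at 1.31-fold (1.21 to 1.42), Ube2c at 1.30-fold (1.27 to 1.33), Ccnb2 at 1.30-fold (1.26 to 1.33) and Smc2 at 1.30-fold (1.26 to 1.33). The interval was above 1 in 45 genes, beside 25.4% of the 15499 genes, and held 1 in Pttg1 and Anln, beside 51.1%. The intervals hold counting error alone, and without molecular identifiers 2 reads may stem from 1 molecule.

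By role, the median log2 ratio was 0.34 for mitotic entry, 0.32 for the kinases and passenger complex, 0.31 for kinetochore genes, 0.29 for chromosome structure, 0.27 for spindle genes, 0.23 for anaphase genes, 0.23 for cytokinesis genes and 0.21 for the checkpoint. At least 25% higher were 5 of 7 genes of mitotic entry (Cdk1, Ccnb2, Cdc25b, Ccnb1 and Ccna2). The kinases and passenger complex had 3 of 6, the kinetochore 3 of 7, and each other role 1, in cytokinesis Prc1. Beside these 16, 9.14% of the 15499 genes were as much higher. With library sizes only 2 of the 47 passed, so the counts by role depend on the scaling. Roles overlapped in their ranges: entry ran from 0.22 to 0.39, cytokinesis from 0.07 to 0.33 and the checkpoint from 0.14 to 0.39.

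**Figure D5:**
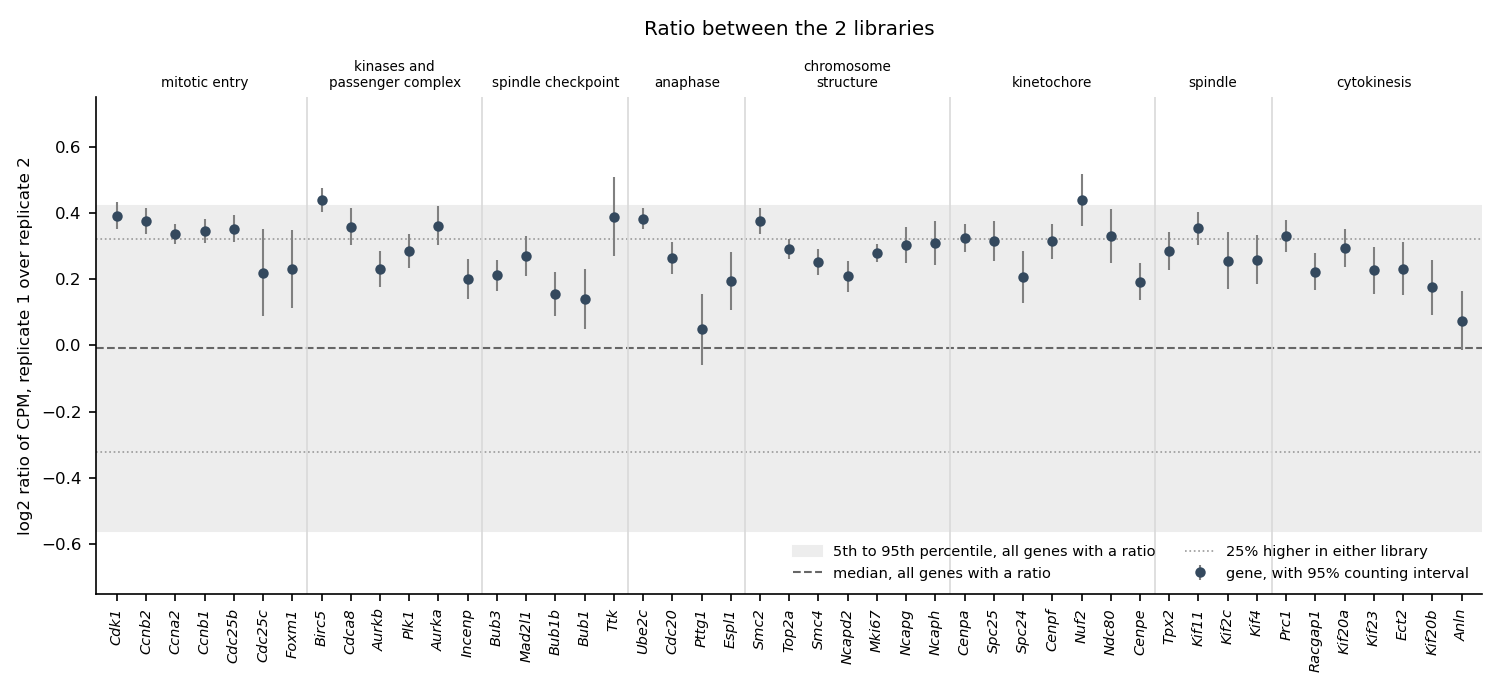
Log2 ratio of CPM (TMM scaling, prior count 2), replicate 1 over replicate 2, of the 47 genes by role, with 95% counting intervals as bars, the range from the 5th to the 95th percentile of all 15499 genes in grey and dotted lines where 1 library is 25% higher. Every point lies above the dashed median of all genes (-0.01), and all but Birc5 and Nuf2 lie within the grey range.

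Other measures differed between the same libraries. Beside the counts of markers below, 49.0% of the 15499 genes were higher in replicate 1 by TMM and 51.0% in replicate 2. Erythroid markers summed to 3181 TPM in replicate 1 and 2805 in replicate 2, and 10 of 10 were higher in replicate 1 by TMM, with a median log2 ratio of 0.34 and Alas2 the highest at a mean of 713 TPM. The summed TPM of the 47 mitosis genes was 1.71 times the erythroid sum in both libraries. Markers of 6 other cell types were higher in replicate 2: neutrophil markers summed to 14285 and 20278 TPM (8 of 8 higher in replicate 2), macrophage markers to 535 and 784 (8 of 8), B cell markers to 259.5 and 371 (7 of 7), mast cell markers to 807 and 1825 (5 of 5), stromal markers to 925 and 1297 (6 of 6) and endothelial markers to 264 and 327 (6 of 6). The regulators of spleen development summed to 180.4 and 229 TPM, and 5 of 5 were higher in replicate 2. Megakaryocyte markers summed to 526 and 548 TPM, but by TMM 5 of 6 were higher in replicate 1, with a median log2 ratio of 0.03. T cell markers, of which 5 of 7 were detected, beside 55.6% of protein-coding genes, summed to 25.7 and 31.9. Of the 5 T cell markers with a ratio, 2 were higher in replicate 1 and 3 in replicate 2, with a median log2 ratio of -0.01. Pancreas markers, from tissue that lies beside the spleen, summed to 904 and 323 TPM. Of these 8, 7 were detected, beside the same 55.6%, and Pnlip was at 0.11 and 0 TPM. The part of these differences in the ratio of the mitosis genes was not tested.

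The rest of the mitotic apparatus was expressed as well. Of 107 further genes in 8 lists, all were at or above 1 TPM in both libraries, beside 55.6% of protein-coding genes, with a median of 30.5 TPM. By TMM, 101 were higher in replicate 1, beside 49.0% of the 15499 genes, with a median log2 ratio of 0.22. At least 25% higher in replicate 1 were 25 of them, beside 9.14%, and 0 were at least 25% higher in replicate 2, beside 15.4%. Subunits and partners of the anaphase-promoting complex were led by Ube2s, the enzyme that extends the chains Ube2c begins, at 257 and 226 TPM, and Anapc5 at 169 and 159.9, with Anapc10 lowest at 9.95 and 9.44. Of these 17 genes, 2 were at least 25% higher in replicate 1, near the share of 9.14% over all genes. The median log2 ratio of the 17 was 0.14. Further centromere and kinetochore genes were led by Zwint, which binds Knl1 at the outer kinetochore, at 139 and 128 TPM and Cenpx at 125 and 128. Cenpo was lowest at 12.0 and 11.2. At least 25% higher in replicate 1 were 10 of these 25, beside the same 9.14%.

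Cohesin, the ring that holds sister chromatids until separase cuts it, was led by Smc1a at 65.8 and 60.5 TPM and its protector Sgo1 at 52.2 and 51.2, with Sgo2a lowest at 9.36 and 9.75. Condensin II, which shares Smc2 and Smc4 with condensin I, had Ncaph2 at 123 and 113 TPM, Ncapg2 at 24.1 and 20.7 and Ncapd3 at 20.97 and 19.4. Ncaph2 was well apart from the other two, whose values overlapped. The small Cdk-binding proteins Cks2 and Cks1b stood at 424 and 356 and at 317 and 300.3 TPM, while Mastl, the Greatwall kinase, was lowest among entry genes at 6.25 and 4.94. Further checkpoint genes were led by Mad2l1bp at 42.4 and 37.2 and Trip13 at 24.3 and 22.1 TPM, which together take Mad2 out of its active form, with Kntc1 lowest at 6.08 and 5.22. Tacc3 and Nusap1 led the other spindle genes at 145 and 129.9 and at 102 and 91.0 TPM, and Kif14 was lowest at 4.41 and 4.11. DREAM and related genes, whose products act at CHR promoters, were led by the histone-binding protein Rbbp4 at 298 and 266 TPM and the repressor E2f4 at 139 and 125, with Lin54, the subunit that contacts the CHR, lowest at 8.17 and 7.72. Of these 8 lists, 6 reached below Espl1, the lowest of the 47 genes, and the kinetochore and condensin II lists did not.

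Relatives of the mitosis genes, most of them known from the germline, were the exception. Of 8 such genes, 2 were detected, beside 55.6% of protein-coding genes. These were Rec8, the meiotic cohesin subunit, at 6.54 and 5.30 TPM and Stag3 at 1.60 and 2.07. The other 6 were below 1 TPM in both libraries, with Ccna1 (cyclin A1) at 0.35 and 0.28, Smc1b at 0.05 and 0.14, Plk5 at 0.10 and 0, Ccnb3 at 0.05 and 0.01 and Cdc20b at 0 and 0.02 TPM. Aurkc had 0 counts in both libraries, beside 111 and 104 TPM for Aurkb and 96.1 and 82.5 for Aurka.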

How the data were processed

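Per library, the authors deposited quantifications of genes and of transcripts on mm10 with GENCODE M4 models, per the text listing filed with the samples. The column layout is that of RSEM, and no source used here names the aligner or a software version. Expected counts, as deposited, are estimates of reads per feature that need not be whole. The deposited TPM sums over all features, with the spike-ins among them. Posterior mean TPM and posterior SDs came from the authors as well. Effective length was length minus 99 nt in all 26303 features with 1 transcript.

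GENCODE M21 (GRCm38) gave names, classes and coordinates by Ensembl identifier (42462 of 43346 genes matched). A gene was detected at 1 TPM in both libraries. For ratios, rounded expected counts were normalized with the TMM method of edgeR 4.0.16 under R 4.3.3, spike-ins and short numbered features left out, with a prior count of 2 and a minimum mean count of 20. A ratio from deposited TPM used a pseudocount of 0.1. Each counting interval is an exact 95% binomial interval on the rounded counts, scaled alike. The ratio step was tested on simulated counts. Other steps used DESeq2 1.42.0, bedtools 2.31.1 and Python 3.11.15 (scipy 1.17.1, pandas 2.3.3, matplotlib 3.10.9, numpy 2.4.6).

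The genes and the lists were chosen with earlier results of these data known. All 47 genes may be named. In other lists the rule names the highest 2 and the lowest 1 by mean TPM, and all below detection. Transcripts are named for genes whose leading transcript is not coding or holds under 60% of TPM in a library, and promoters for the 6 highest genes with both motifs. Marker genes named singly were chosen after their values were seen. Alternatives were other thresholds, scalings, filters, lengths, windows and each library alone. Nothing in the labels says more than separate pups, so the SD measures the spread between these 2 samples. The level of 1 marker gene and the letters of 1 site are not reported here.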

Additional observations from a re-analysis of the deposited data

How the results depend on the processing

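All 47 genes were detected at 10 TPM, and by posterior mean TPM. Detection at 0.5 and 5 TPM and in each library alone follows from that at 10 TPM and is no further check. The summed share of 0.512% of TPM was 0.584% of the TPM of protein-coding genes, 0.842% of that without globins, 0.918% of expected counts, and 0.352% on the longest coding transcripts. It was 0.481% and 0.544% in the libraries taken singly. The median of 69.3 TPM was 79.1 after rescaling to protein-coding genes, 114 without globins, 58.4 on the coding transcript with the most counts, 53.8 on the longest, and 66.1 to 69 in single libraries. The median log2 ratio of 0.28 was 0.19 with library sizes, 0.14 with deposited TPM and 0.34 with spike-in totals, and it was positive under every setting run. The count of 16 genes at least 25% apart was 2, 0 and 25 under these 3 scalings, and 0 at a fold of 1.5 and of 2. Promoters with both motifs numbered 14 before the start, 11 in the 150 bases before it and 27 with the window carried to 50 bases past it. Complexes with subunits at least 2-fold apart numbered 4, and 5 by posterior mean TPM, with centralspindlin added. On the longest coding transcripts they numbered 4 too, with Cdk1 and its cyclins (2.29) in and condensin I (1.82) out. Genes led by a transcript under 60% numbered 13, and 9 by counts. Levels of single genes moved by more than the SD between the libraries in 17 of 47 on the coding transcript with the most counts, in 23 on the longest and in 1 by posterior mean TPM. The recomputed lengths were chosen after seeing the data. Except for the scalings and lengths, which change the values by construction, the cause of these differences was not tested. No paired analysis was possible because the libraries form 1 group, and a ratio cannot be computed with a library left out. Depth was not limiting for levels, since the lowest gene had 892 estimated counts, but 2 libraries give a weak estimate of the spread.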
